A study of Mus musculus with 4 samples.

Results

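Scavenger and mannose receptors are cell surface and lysosomal proteins with which macrophages bind and take up modified lipoproteins, microbes, glycoproteins and cell debris. The set described here has 10 genes, taken by name from the gene count table, and all 10 had a row among the 55401 genes of the table. They are the mannose receptor Mrc1, the class A scavenger receptors Msr1 and Marco, the class B members Cd36, Scarb1 and Scarb2, the class D member Cd68, the stabilin Stab1, the haemoglobin scavenger receptor Cd163 and Cd5l, a secreted protein. Poly(A) RNA was sequenced from bone marrow-derived macrophages, which are macrophages grown from marrow in culture, of C57BL/6J mice. In 2 libraries the marrow cells had received CRISPR-Cas9 lentivirus directed at Adcy7, which encodes an enzyme making cyclic AMP. They are called Adcy7 knockout. In the other 2 they had received the same kind of virus directed at Rosa (Rosa control), a locus often used as a neutral target, so every library came from cells exposed to virus and Cas9. Virus was given once the marrow had been isolated, on day 1, at an MOI (infectious virus per cell) of 30, and macrophages were obtained in 5 days. All 4 libraries carry the same batch label. Sex, age, the number of mice, the guides and the share of edited cells were not given in the sources used here, and no label ties a replicate to its own mouse or culture. The p-values therefore reflect the spread between these libraries alone, which may be technical.

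The members differ in what they bind and where they act. The mannose receptor and the scavenger receptors at the surface deliver ligands into endosomes, whereas Scarb2 and Cd68 lie mostly in lysosomal and late endosomal membranes. Several of these genes are used as macrophage markers, Cd68 for macrophages in general and Mrc1 and Cd163 for alternatively activated and tissue-resident cells.

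The promoters of 4 members are shown because these genes mark the ends of the set: Mrc1 and Cd5l were almost lost in the knockout libraries, Scarb2 was the member that rose, and Cd68 did not pass the test. Each sequence holds 250 bases before and 50 bases after the start of the gene, from RefSeq on GRCm38.p6, an older build than that named for the counts, written 5′ to 3′ on the strand of the gene. The Mrc1 window lies at chr2:14229164-14229463 on the plus strand and that of Cd5l at chr3:87357631-87357930 on the plus strand. The Scarb2 window lies at chr5:92505608-92505907 on the minus strand and that of Cd68 at chr11:69666121-69666420 on the minus strand. Capitals mark matches on either strand to any of 7 short motifs described further on.
Mrc1: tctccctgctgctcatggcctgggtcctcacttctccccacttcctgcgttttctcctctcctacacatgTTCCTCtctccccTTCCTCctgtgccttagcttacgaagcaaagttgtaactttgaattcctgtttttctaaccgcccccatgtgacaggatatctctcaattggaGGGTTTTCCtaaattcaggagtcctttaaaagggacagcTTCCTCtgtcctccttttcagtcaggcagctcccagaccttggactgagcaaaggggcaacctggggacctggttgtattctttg
Cd5l: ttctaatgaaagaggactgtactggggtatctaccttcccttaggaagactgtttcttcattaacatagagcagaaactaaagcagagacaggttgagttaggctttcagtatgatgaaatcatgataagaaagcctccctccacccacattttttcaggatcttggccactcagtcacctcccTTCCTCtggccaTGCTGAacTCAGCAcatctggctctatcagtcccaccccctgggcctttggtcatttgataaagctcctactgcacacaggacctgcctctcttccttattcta
Scarb2: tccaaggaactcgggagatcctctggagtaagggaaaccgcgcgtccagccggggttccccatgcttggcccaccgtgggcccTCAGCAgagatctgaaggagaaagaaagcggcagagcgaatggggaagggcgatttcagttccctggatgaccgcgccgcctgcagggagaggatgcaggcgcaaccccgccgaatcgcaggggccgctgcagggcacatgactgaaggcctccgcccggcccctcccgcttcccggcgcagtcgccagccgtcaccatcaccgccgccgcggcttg
Cd68: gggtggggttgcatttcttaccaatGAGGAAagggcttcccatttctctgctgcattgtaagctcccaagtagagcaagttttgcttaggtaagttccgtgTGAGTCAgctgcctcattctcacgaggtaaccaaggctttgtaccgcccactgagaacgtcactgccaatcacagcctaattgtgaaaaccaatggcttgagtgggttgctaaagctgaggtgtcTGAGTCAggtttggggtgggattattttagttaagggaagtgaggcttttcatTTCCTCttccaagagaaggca

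The depth and the labels were checked before the members. Library totals were 71914179 and 61782358 counts for the knockout, against 65766496 and 69874955 counts for the control. Adcy7 was at 59.4 and 58.8 CPM (counts scaled to the library total) in the knockout libraries, against 122 and 125 CPM in the control libraries, or -1.05 as a log2 fold change (standard error, SE, 0.09; edgeR adjusted p = 4.24e-05). Of 10 macrophage markers 8 were lower and 2 higher in the knockout, with summed levels of 23909 to 24158 CPM in the knockout, against 58875 to 60974 CPM in the control. Most of that sum in both groups was Lyz2, at 16468 and 16440 CPM in the knockout, against 50358 and 52209 CPM in the control. Adgre1 and Csf1r, the F4/80 antigen and the receptor that macrophages need for survival, were still at 876 ± 17.7 and 1237 ± 97.9 CPM in the knockout, against 1456 ± 49.2 and 1809 ± 3.72 CPM in the control (SD, n = 2 each), while the clearance receptor gene Mertk was at 0.317 ± 0.0551 CPM, against 17.5 ± 1.12 CPM. In bulk RNA, fewer cells of a type and less RNA per cell cannot be told apart.

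Most of the receptor genes were lower after Adcy7 targeting. All 10 members passed the filter on low counts. Of these 8 fell, 1 rose and 1 did not pass at an adjusted p under 0.05 (edgeR quasi-likelihood test, Benjamini-Hochberg adjustment over 15832 genes). Among all tested genes 46.7% passed in either direction, 23.4% lower and 23.4% higher in the knockout. The knockout libraries lay on 1 side of the control libraries for 9 of 10 members, against 75.2% of all tested genes. The median log2 fold change of the members was -1.78, beside 0.01 for all tested genes.

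**Figure D1:**
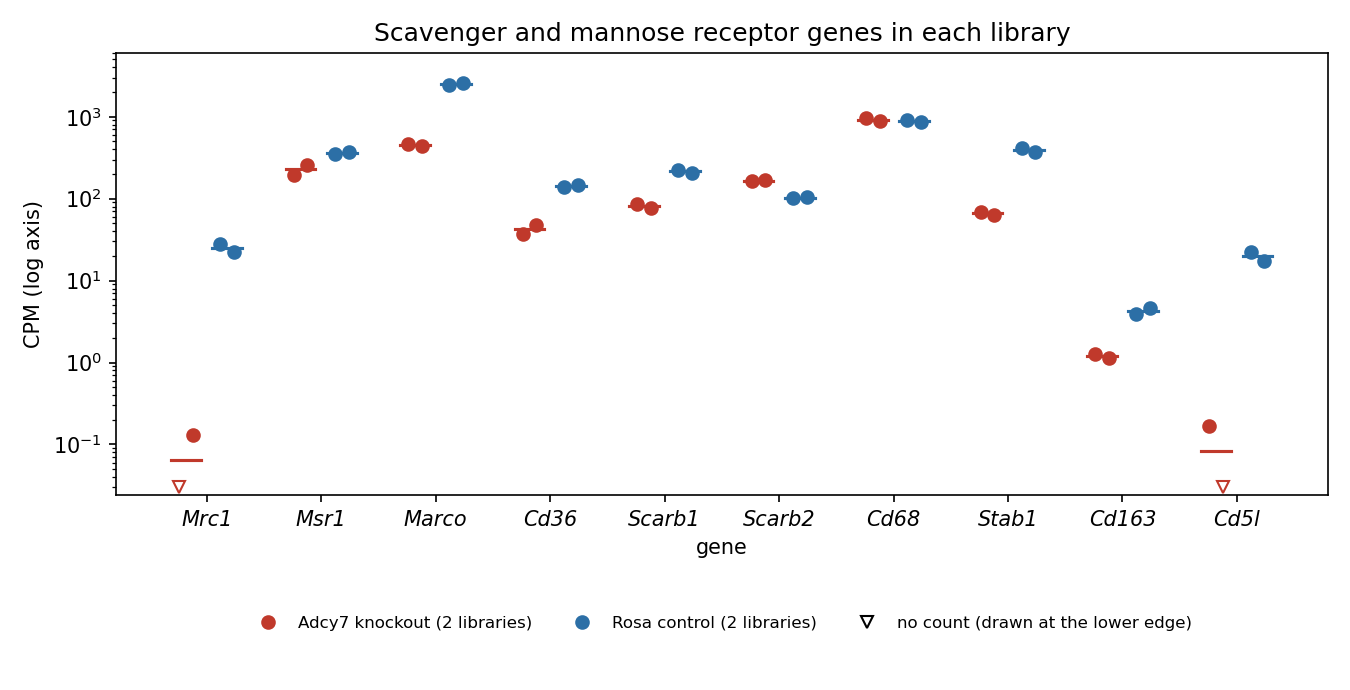
CPM (log axis) of each receptor gene in the 2 Adcy7 knockout and 2 Rosa control libraries, with the group mean as a line; open triangles at the lower edge are libraries with no count. The knockout libraries lie below the control libraries for 8 genes, above them for Scarb2, and overlap them for Cd68.

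The mannose receptor gene was almost absent from the knockout libraries. Mrc1 (ENSMUSG00000026712, chromosome 2) encodes a C-type lectin receptor that takes up glycoproteins ending in mannose, fucose or N-acetylglucosamine. It had 0 and 8 deposited counts in the knockout libraries, or 0 and 0.129 CPM, against 1863 and 1547 counts, or 28.3 and 22.1 CPM, in the control libraries. About 4 deposited counts were assumed to stand for 1 sequenced fragment, so the knockout total may be 2 fragments. On that scale the knockout level was 0.238% of the control level, with a 95% exact binomial interval of 0.0288% to 0.863% that covers counting error only (adjusted p = 3.58e-06). The microRNA gene Mir511, which lies in the Mrc1 gene on the same strand, had 0 counts in all 4 libraries. Poly(A) libraries are not made to capture microRNAs, so this does not show that Mir511 was absent.

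Both class A receptor genes fell, by unequal amounts. Marco (ENSMUSG00000026390, chromosome 1), a collagenous receptor for bacteria and particles, was at 463 and 434 CPM in the knockout, against 2433 and 2609 CPM in the control. Its log2 fold change was -2.48 (SE 0.10, adjusted p = 7.76e-07), and the knockout mean was 17.8% of the control mean. Msr1 (ENSMUSG00000025044, chromosome 8), the scavenger receptor A that binds modified low-density lipoprotein, was at 195 and 261 CPM in the knockout, against 355 and 372 CPM in the control. Its log2 fold change was -0.66 (SE 0.12, adjusted p = 0.00292). The knockout libraries differed more from each other than the control libraries for this gene, and the log2 fold change was -0.49 without knockout replicate 1 and -0.85 without knockout replicate 2.

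The class B family split. Cd36 (ENSMUSG00000002944, chromosome 5), a receptor for oxidised lipoproteins, thrombospondin and long-chain fatty acids, was at 37.1 and 47.5 CPM in the knockout, against 137 and 148 CPM in the control, with a log2 fold change of -1.74 (SE 0.13, adjusted p = 1.57e-05). Scarb1 (ENSMUSG00000037936, chromosome 5), the receptor for high-density lipoprotein, was at 86.7 and 77.0 CPM in the knockout, against 221 and 208 CPM in the control, with a log2 fold change of -1.37 (SE 0.10, adjusted p = 1.48e-05). For both genes the knockout libraries lay well below the control libraries. Scarb2 (ENSMUSG00000029426, chromosome 5), also called LIMP-2, a membrane protein of lysosomes, was at 165 and 167 CPM in the knockout, against 101 and 104 CPM in the control. It rose by 0.71 on the log2 scale (SE 0.08, adjusted p = 0.000223), or 1.64-fold, and was the member whose knockout libraries both lay above the control libraries.

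Cd68 (ENSMUSG00000018774, chromosome 11), a heavily glycosylated lysosomal membrane protein, was at 956 and 894 CPM in the knockout, against 916 and 855 CPM in the control. The libraries of the groups interleaved. The log2 fold change was 0.08 (SE 0.09, adjusted p = 0.495), which does not show that the level was the same, and it ranged from 0.01 to 0.16 over the 11 alternative settings.

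The remaining members fell. Stab1 (ENSMUSG00000042286, chromosome 14), or stabilin-1, which takes up modified lipoprotein, the matrix protein SPARC and dying cells, was at 69.2 and 62.7 CPM in the knockout, against 420 and 374 CPM in the control, with a log2 fold change of -2.57 (SE 0.10, adjusted p = 7.72e-07). Nt5dc2 overlaps exons of Stab1 on the opposite strand, and no strand-keeping method is named, so reads in the overlap cannot be told apart. Nt5dc2 was at 89.3 and 76.1 CPM in the knockout, against 272 and 263 CPM in the control. Cd163 (ENSMUSG00000008845, chromosome 6), which clears complexes of haemoglobin with haptoglobin, was at 1.27 and 1.13 CPM in the knockout, against 3.94 and 4.61 CPM in the control, with a log2 fold change of -1.82 (SE 0.26, adjusted p = 0.000717). It was thus low in both groups. Cd5l (ENSMUSG00000015854, chromosome 3), a secreted protein also called AIM that binds lipid and damage products and is itself taken up through Cd36, had 12 and 0 counts in the knockout, or 0.167 and 0 CPM, against 1472 and 1195 counts, or 22.4 and 17.1 CPM, in the control. Its knockout total may be 3 fragments, a level of 0.456% of the control with an exact binomial interval of 0.0939% to 1.34% (adjusted p = 1.1e-05).

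**Figure D2:**
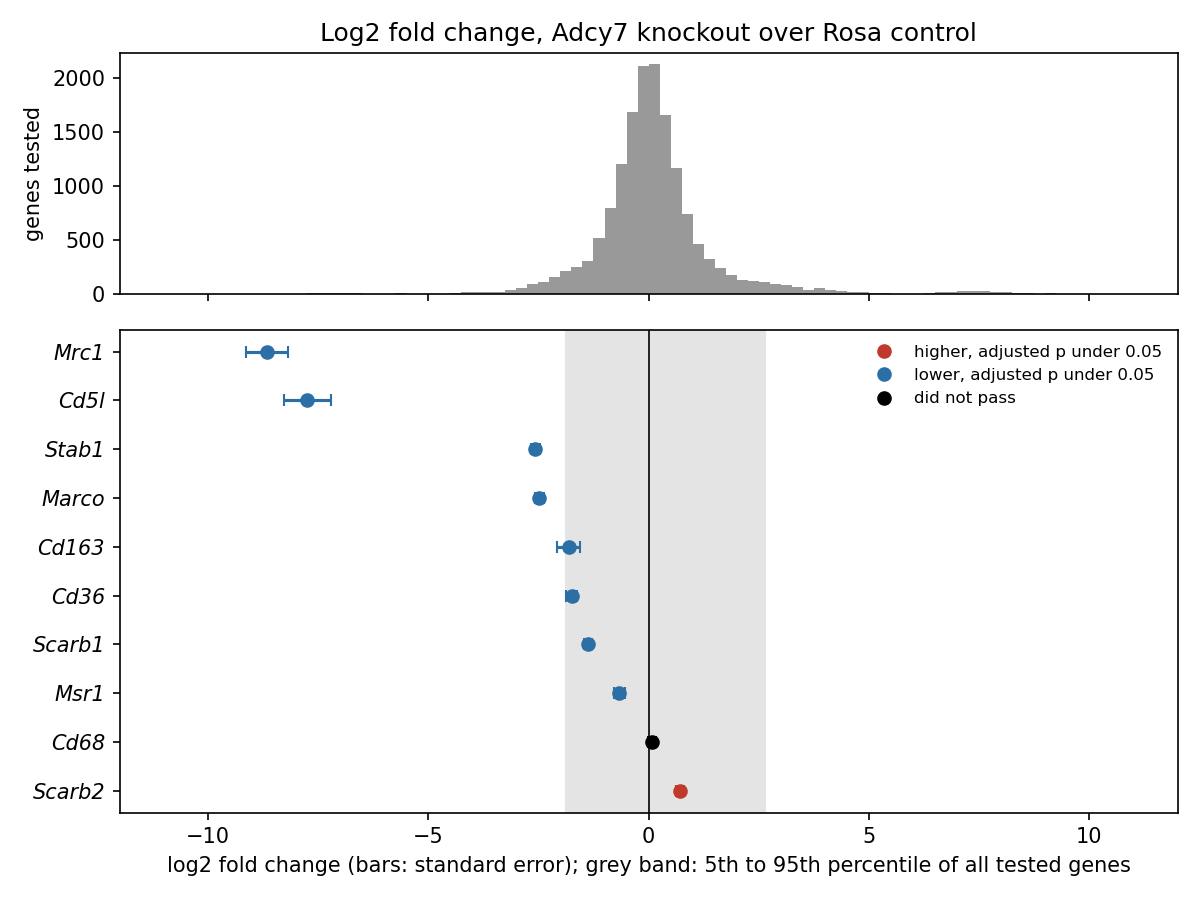
Log2 fold change of Adcy7 knockout over Rosa control for all 15832 tested genes (upper panel, number of genes per bin) and for each receptor gene (lower panel, points with standard errors); the grey band holds the 5th to 95th percentile of all tested genes, -1.87 to 2.63. Mrc1, Cd5l, Stab1 and Marco lie below the band, and the fitted values of Mrc1 and Cd5l depend on the small constant added to counts because a knockout library of each had no count.

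The mix of receptor transcripts changed with their total. The 10 members together made up 0.197% and 0.194% of all counts in the knockout libraries, against 0.464% and 0.471% in the control libraries. Marco gave 23.5% and 22.3% of the members' counts in the knockout, against 52.5% and 55.3% in the control, and Cd68 gave 48.4% and 46.0% in the knockout, against 19.7% and 18.1% in the control. Levels of different genes were compared as CPM per kilobase of annotated exon (CPM/kb). In the knockout Cd68 stood highest at 736 CPM/kb, followed by Marco at 233 CPM/kb, Msr1 at 35.9 CPM/kb and Scarb2 at 26.4 CPM/kb. In the control Marco stood highest at 1310 CPM/kb, followed by Cd68 at 704 CPM/kb, Msr1 at 57.3 CPM/kb and Cd36 at 39.7 CPM/kb. Scarb2 was in place 4 of 10 in the knockout and in place 7 of 10 in the control. The neighbours in this order whose libraries overlapped were Cd5l and Mrc1 in the knockout and Cd36 and Stab1 in the control.

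Ratios within a library do not depend on how libraries are scaled. The count of Marco was 2.37 and 1.67 times that of Msr1 in the knockout libraries, against 6.85 and 7.02 times in the control libraries. Scarb2 had 1.91 and 2.17 times the count of Scarb1 in the knockout, against 0.459 and 0.497 times in the control, so the order of these family members was opposite in the groups. The same held for Scarb2 and Cd36, with ratios of 4.45 and 3.51 in the knockout and 0.740 and 0.702 in the control. Marco had 0.484 and 0.485 times the count of Cd68 in the knockout, against 2.66 and 3.05 times in the control. Of 8 such ratios computed all separated the groups. Scarb1 over Cd36 did so narrowly, at 2.34 and 1.62 in the knockout, against 1.61 and 1.41 in the control. The pairs share genes, and 75.2% of single tested genes also separated the groups. The share over other gene pairs was not computed. The exact two-sided permutation p was 0.333 for each ratio, the smallest that 2 against 2 libraries allow, so none can pass at 0.05.

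**Figure D3:**
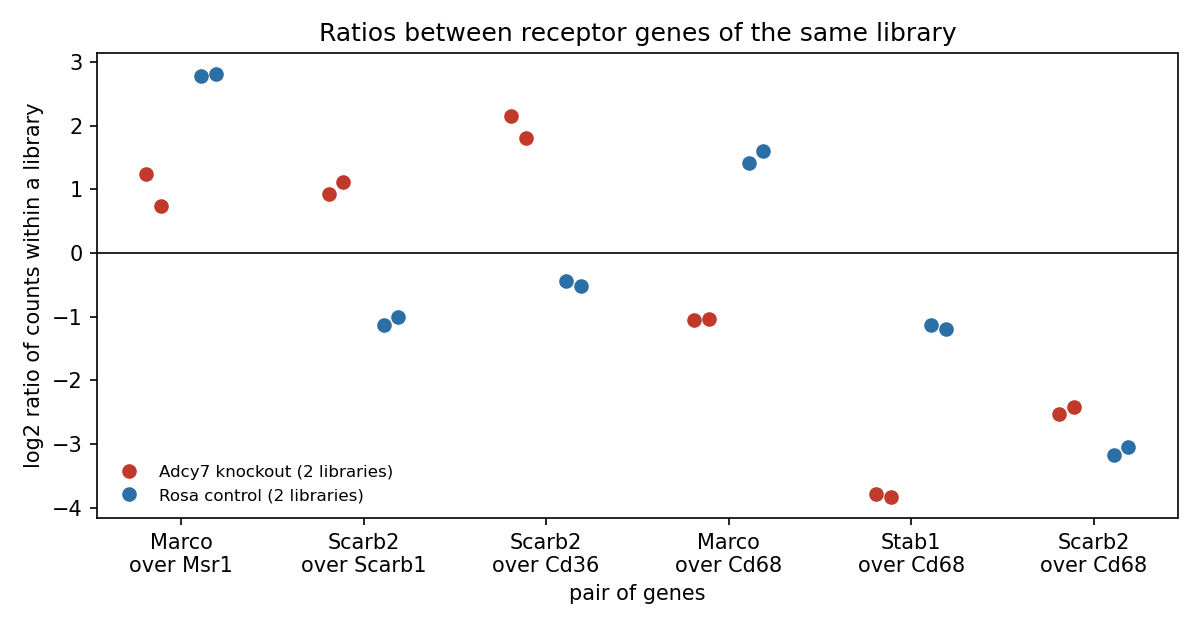
Log2 ratio of the counts of gene pairs within each library, for 2 Adcy7 knockout and 2 Rosa control libraries. Marco over Msr1, Marco over Cd68 and Stab1 over Cd68 are lower in the knockout libraries, and Scarb2 over Scarb1, Cd36 and Cd68 higher.

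Other scavenger and endocytic lectin receptor genes were looked at next, from a list of 17 of which 12 were tested. Of the 12, 3 were higher and 4 lower in the knockout and 5 missed the threshold; the median log2 fold change was -0.01, the same with the gene that had no knockout count set at its bound. Olr1, the lectin-like class E receptor for oxidised lipoprotein, was at 15.6 and 19.8 CPM in the knockout, against 0.973 and 1.20 CPM in the control, 16.4-fold higher (log2 fold change 4.04, SE 0.21, adjusted p = 2.56e-06). Relatives of Mrc1 in the mannose receptor family did not share its direction throughout. Ly75, or DEC-205, an endocytic receptor of dendritic cells, was at 45.7 and 46.2 CPM in the knockout, against 7.34 and 8.50 CPM in the control, 5.86-fold higher (adjusted p = 1.63e-06). Pla2r1, a receptor for secreted phospholipases, had no count in the knockout and 33 and 53 counts in the control, at least 7.06-fold lower against a floor of 12 counts over both knockout libraries (adjusted p = 0.00154). Mrc2, a collagen receptor of that family, had 8 and 0 counts in the knockout and none in the control and was not tested. Of the low genes Megf10, an engulfment receptor, was at 0.264 and 0.550 CPM in the knockout, against 0.0608 and 0 CPM in the control (adjusted p = 0.0295). The ratio was 13.2 with a 95% exact binomial interval of 1.98 to 561. Ager, the receptor for advanced glycation end products, was at 0.0834 and 0.275 CPM in the knockout, against 1.14 and 0.644 CPM in the control (adjusted p = 0.027). Megf10 lost its call without knockout replicate 1, knockout replicate 2 or control replicate 2 (adjusted p = 0.0584, 0.196 and 0.108), and Ager without knockout replicate 1 or control replicate 1 (adjusted p = 0.0924 and 0.137).

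Transcription regulators with known roles at scavenger receptor genes were also mixed, with 5 that rose, 8 that fell and 9 that did not pass among 22 tested, and a median log2 fold change of -0.11. Maf, a factor of mature macrophages, was at 23.0 and 22.2 CPM in the knockout, against 201 and 182 CPM in the control (log2 fold change -3.06, SE 0.10, adjusted p = 3.51e-07). Spic, the factor of red pulp macrophages that handle haem iron, had 184 and 176 counts in the knockout, against 4 and 4 counts in the control, a ratio of 45.7 with a 95% exact binomial interval of 12.3 to 383 (adjusted p = 2.92e-05). The lipid sensor gene Pparg, which acts at Cd36, was at 0.0417 and 0.534 CPM in the knockout, against 1.25 and 1.03 CPM in the control, and did not pass (adjusted p = 0.0918). It was named after its values were seen.

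Ligands, carriers and signalling partners of the receptors differed in direction among themselves. Among 20 tested, 9 were higher and 8 lower in the knockout and 3 missed the threshold; the median log2 fold change was 0.25. Hmox1, the haem oxygenase that degrades haem taken up through Cd163, was at 7907 and 7500.1 CPM in the knockout, against 1672 and 1797 CPM in the control, 4.49-fold higher (adjusted p = 1.61e-06). Tlr2, which signals together with Cd36, averaged 258 ± 13.7 CPM in the knockout, against 102 ± 2.25 CPM in the control (SD, n = 2 each), 2.57-fold higher (adjusted p = 7e-06). Outside the rule for naming genes, and chosen after their values were seen, are partners of 2 members. Hp, the haptoglobin bound by Cd163, was at 3730.2 and 3374 CPM in the knockout, against 1421 and 1471 CPM in the control. Fyn, a kinase downstream of Cd36, was at 7.06 and 5.23 CPM in the knockout, against 21.7 and 20.3 CPM in the control.

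Genes that handle the lipids brought in by these receptors were examined last. Among 18 tested, 6 were higher and 9 lower in the knockout and 3 missed the threshold; the median log2 fold change was -0.29. Lpl, the lipoprotein lipase, was at 25.0 and 28.2 CPM in the knockout, against 924 and 946 CPM in the control (log2 fold change -5.12, SE 0.10, adjusted p = 9.39e-08). Apoe, which carries cholesterol out of macrophages, was at 66.2 and 60.6 CPM in the knockout, against 1849 and 1638 CPM in the control (log2 fold change -4.76, SE 0.11, adjusted p = 1.26e-07). Pltp, the phospholipid transfer protein, had a log2 fold change of -4.44 (SE 0.18, adjusted p = 9.37e-07) and Cyp27a1, a sterol hydroxylase, one of -4.20 (SE 0.24, adjusted p = 4.2e-06). In the other direction the cholesterol exporter gene Abca1 was at 101 and 112 CPM in the knockout, against 14.0 and 12.4 CPM in the control, 8.16-fold higher (adjusted p = 7.19e-07). Ch25h, which makes 25-hydroxycholesterol, was 20.8-fold higher (adjusted p = 8.82e-07).

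**Figure D4:**
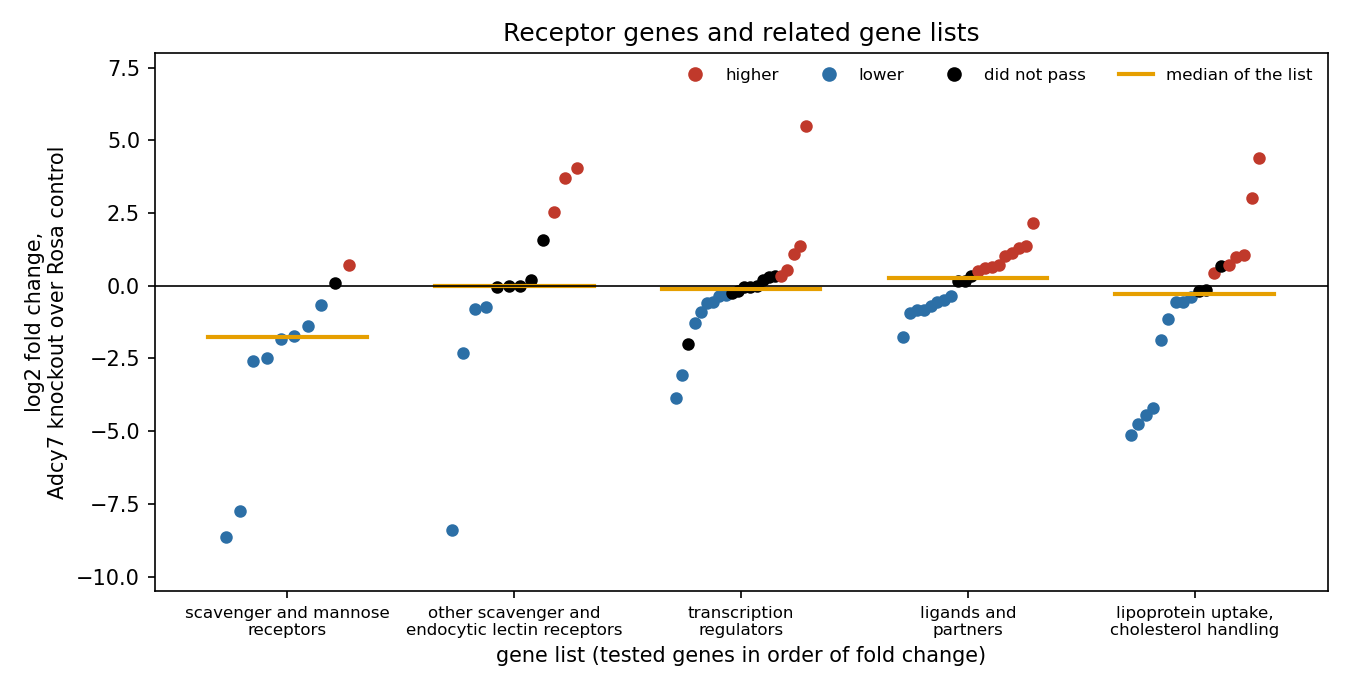
Log2 fold change of Adcy7 knockout over Rosa control for the receptor genes and for the tested genes of 4 related lists, each point a gene, coloured by call, with the median of each list as a line. The receptor genes have a median of -1.78, and the other lists have medians between -0.29 and 0.25.

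Markers of other cells were counted in the same libraries. Of all tested genes 46.7% were called, 23.4% higher and 23.4% lower in the knockout. Counts of a list near these shares do not set it apart from all genes. Of dendritic cell markers 4 of 7 tested were higher and 1 lower, with summed levels of 49.3 to 49.8 CPM in the knockout, against 8.26 to 10.2 CPM in the control, of which Ccr7 alone gave 41.1 CPM in each knockout library. Cd209a and Siglech had no count in the knockout and at most 8 and 13 counts in a control library, and were not tested. Classical monocyte markers had 2 of 8 higher and 5 lower (5921 to 6130 CPM in the knockout, 4526 to 4794 CPM in the control) and neutrophil markers 0 of 11 higher and 6 lower (5350 to 6828 CPM in the knockout, 6000 to 7319 CPM in the control). Of endothelial cells, which can carry Mrc1, Stab1 and Cd36, 3 of 6 tested markers were higher and 0 lower (83.9 to 94.1 CPM in the knockout, 24.0 to 29.1 CPM in the control). Most of that sum in the knockout was Vwf, at 68.5 and 57.6 CPM there, against 8.07 and 7.31 CPM in the control. Cdh5 and Kdr did not pass (edgeR adjusted p = 0.369 and 0.384), and their libraries overlapped between the groups. Tek and Stab2 were at 0 in all 4 libraries. Osteoclast markers had 3 of 6 higher and 2 lower (1873 to 2249 CPM in the knockout, 2797 to 2888 CPM in the control), with Calcr at 0 in all 4 libraries. Most of that sum was Mmp9, which was lower, at 1773 and 1432 CPM in the knockout, against 2799 and 2708 CPM in the control. Of the 3 that were higher, Acp5 was at 362 and 326 CPM in the knockout, against 41.5 and 40.7 CPM in the control. Eosinophil markers had 4 of 5 higher (219 to 279 CPM in the knockout, 30.8 to 33.6 CPM in the control), and mast cell and basophil markers 6 of 7 (107 to 115 CPM in the knockout, 27.6 to 36.6 CPM in the control). Platelet markers had 10 of 10 higher (317 to 357 CPM in the knockout, 185 to 201 CPM in the control). Most of that sum in both groups was Pf4, at 207 and 189 CPM in the knockout, against 170 and 153 CPM in the control. Fold changes on this list ran from 1.24 for Pf4 to 34.8 for Gp1bb. B cell markers had 6 of 7 higher and 1 lower (39.1 to 41.7 CPM in the knockout, 27.1 to 28.0 CPM in the control), and T and innate lymphoid markers 4 of 8 higher and 1 lower (133 to 151 CPM in the knockout, 16.8 to 18.4 CPM in the control). The lymphoid sum in the knockout was mostly Il7r, at 109 and 125 CPM there, against 8.41 and 7.37 CPM in the control, while Cd3e, Cd3d, Cd3g, Trac and Cd2 were each under 0.5 CPM in every library and none of them was called. Erythroid markers had 2 of 3 higher (9.50 to 13.3 CPM in the knockout, 1.60 to 1.76 CPM in the control) and stromal markers 3 of 7 (44.4 to 50.6 CPM in the knockout, 2.25 to 3.22 CPM in the control). The stromal sum in the knockout was mostly Dcn, at 32.9 and 39.9 CPM there, against 0.411 and 0.172 CPM in the control. Ear6, an eosinophil marker, and Lum, a stromal marker, had 44 and 24 counts and 49 and 112 counts in the knockout, against 0 in the control, and both were called higher. Il5ra, Fcer1a, Trac, Emcn and Cxcl12 had at most 21 counts in a knockout library, against 0 in the control, and were not tested. Lepr, Cma1 and Car1 were at 0 in all 4 libraries. The part of other cells in the receptor results was not tested.

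Promoter sequences were available for 8 of the 10 members in the RefSeq table, all but Msr1 and Scarb1, and were searched on both strands for 7 motifs. The PU.1 core GAGGAA, of the factor that defines myeloid cells, was found in 5 of 8 promoters (Mrc1, Marco, Stab1, Cd68 and Cd5l) and in 28.3% of the 32851 promoters of that length. The MAF core TGCTGA was found in 4 of 8 (Cd36, Stab1, Scarb2 and Cd5l) and in 19.5% of all. In Cd5l it occurred on both strands, with first bases at -54 and -46 from the start of the gene. AP-1 (TGANTCA) matched only in Cd68, the nuclear receptor core AGGTCA only in Cd36 and the NF-kB motif GGGNNTTCC only in Mrc1, motifs held by 7.81%, 16.3% and 5.82% of all promoters. The E-box CACGTG of the TFEB group and the cyclic AMP response element TGACGTCA were in none of the 8 windows and in 7.15% and 1.79% of all. No motif overlapped another in the sequences shown. A match describes letters in these windows and does not show that a factor binds there. The members that fell and the members that did not shared motifs in both cases, PU.1 in Mrc1 and Cd68 and MAF in Cd5l and Scarb2.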

How the data were processed

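Poly(A) RNA was sequenced in 4 libraries. The authors deposited a table of estimated counts by Ensembl gene ID, whole numbers with no normalization. HISAT2, fastp, edgeR and StringTie and the build GRCm39 are named in the submitters' processing notes, with no versions or settings; these were not given in the sources used here. Multiples of 4 made up 30.5% to 32.2% of the values from 1 to 40 in each library, against 25% if all values were equally frequent. On this ground 1 fragment may be worth about 4 counts. Most values in that range were not multiples of 4, so the scale is an assumption. Fragment numbers, intervals (95% exact binomial) and the floor of 3 fragments (12 counts) rest on this and cover counting error only. The knockout columns are headed KO3 with a replicate number, and KO and that number tied them to the titles; the digit is not explained.

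Symbols came from a table of gene IDs and names (55141 of 55401 IDs matched). Exon lengths and overlaps came from GENCODE M21 on GRCm38. Coordinates of that build are given only for the promoter windows. Counts were filtered with filterByExpr (15832 genes kept), given TMM factors and fitted in edgeR 4.0.16 under R 4.3.3. Its quasi-likelihood test had 2 residual degrees of freedom per gene, with the spread of each gene moderated across genes. The p-values were adjusted by Benjamini-Hochberg across every tested gene with a threshold of 0.05. SE is the size of the log2 fold change divided by the square root of F. The members and all gene lists (4 related, 13 of cell type markers, 4 genes being on a list of each kind) were chosen with earlier results of these data known. Named genes are the members, Adcy7 and, from each related list, up to 6 that passed with a log2 fold change of at least 2 in size, and, where fewer than 2 did, the lowest adjusted p up to 2 genes. Some genes that entered the counts are not reported here by name. Alternatives were other scalings and filters, DESeq2 1.42.0, counts divided by 4, a replicate block and leaving out each library.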

Additional observations from a re-analysis of the deposited data

How the results depend on the processing

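All 10 members kept their direction and their side of the threshold under the 11 alternatives tried (RLE scaling, library totals only, no filter on low counts, at least 1 CPM in 2 libraries, DESeq2, counts divided by 4, a replicate block and leaving out each library). The members numbered 1 higher and 8 lower each time. Over all genes 3703 were higher and 3697 lower, and leaving out a library gave 2919 to 3608 higher and 2930 to 3684 lower. With 1 library left in a group, that library is assumed to vary like the other group. Same-numbered libraries did not deviate together from their group means (correlation 0.015). With 2 libraries a group this cannot settle whether they shared a mouse or culture. The replicate block gave 3485 higher and 3560 lower and changed no call among the members. In that fit Mrc1 had a log2 fold change of -8.65 (adjusted p = 0.000133), and Ager and Megf10 no longer passed (adjusted p = 0.0685 and 0.0909). Without the filter Megf10 did not pass (adjusted p = 0.0785), and with the filter of 1 CPM it was not tested, with 2 rather than 4 lower genes among 7 tested of the other scavenger receptors. The fitted log2 fold changes of Mrc1 and Cd5l ranged from -13.75 to -7.59 and from -13.34 to -6.82, the lowest values arising where the lone knockout library had no count. With 2 libraries a group, each gene has 2 residual degrees of freedom of its own, and the fit also borrows spread from other genes. Levels under about 12 counts per group lie near the floor.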
